A study of Mus musculus with 6 samples.

Results

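Elastin, the fibulins, the emilins and the crosslinking oxidases Lox and Loxl1 were followed probe by probe in mouse thoracic aorta, where they build the elastic fibres of the vessel wall. The members are 10 genes named by function: Eln, Fbln1, Fbln2, Fbln5, Efemp1, Efemp2, Emilin1, Emilin2, Lox and Loxl1. Every probe that the platform annotation assigns to them was taken, which gave 18 probes of 9 genes out of 45281 probes and 19053 named genes on the array. Efemp2 was not analysed here. Of the 18 probes, 14 probes of 7 genes gave a signal above background on at least 3 of the 6 arrays and were tested.

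RNA of 6 thoracic aorta samples from male C57Bl/6 mice aged 3 to 4 months was hybridized to Illumina bead arrays, 1 array per sample. The 3 NDST samples, labelled SM22αCre+Ndst-/-, lack the heparan sulfate enzyme Ndst1 in smooth muscle by the series' account. The 3 WT samples are labelled SM22αCre-Ndstwt/wt and carry no Cre, so that Cre and the loss of Ndst1 cannot be told apart. Cre stood under the SM22α promoter, which is active in smooth muscle. Ndst1 was not analysed here, and its level therefore gives no check of the genotypes. Whether each sample stands for a mouse of its own is not stated, so every p-value rests on a spread among arrays that may be technical.

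Elastic fibres consist of an amorphous core of elastin, laid down on a scaffold of microfibrils. Cells secrete the soluble precursor tropoelastin, fibulins guide it onto the scaffold, emilins sit at the interface of core and microfibrils, and lysyl oxidases join its lysine side chains into crosslinks. In the aorta most of this is made by smooth muscle cells early in life, and the fibres give the wall its recoil.

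Of the 14 tested probes, 6 probes of 4 genes passed, all of them higher in NDST: 3 of Fbln1 and 1 each of Fbln2, Emilin2 and Eln. Their changes were modest, from 0.44 to 0.65 in log2. The other probes that were tested stood between -0.09 and 0.54 and did not pass. Across the array 7.44% of the tested probes passed, 4.32% higher and 3.12% lower, whereas the 6 make 42.9% of the tested member probes. This contrast is a description and no test. The members were chosen with earlier results of these data known, and the 3 called Fbln1 probes read 1 gene. The 14 probes had a median difference of 0.37, beside a median of -0.01 over all 17954 tested probes. The 3 NDST values lay above the 3 WT values for 12 of the 14 probes and below them for none, where 32.4% of all tested probes did not overlap, 16.1% higher and 16.3% lower in NDST. By the brightest tested probe 3 of the 7 genes rose (Fbln1, Fbln2 and Emilin2), beside 4.61% of 10076 genes that rose and 7.35% that passed in either direction. One of these 12, a dim Fbln2 probe, entered the test only through its NDST arrays. Without it 13 probes remain, detected on all 6 arrays, with the same 6 calls and 11 without overlap. In a fit limited to the 14905 probes detected on all 6 arrays, 11.8% passed in either direction, and 8 of the 13 member probes. The share without overlap among those 14905 was not counted. Differences are log2 values, NDST minus WT, with limma's standard error and 3 arrays per genotype, and a probe passed with a Benjamini-Hochberg adjusted p under 0.05 over all tested probes.

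**Figure D1:**
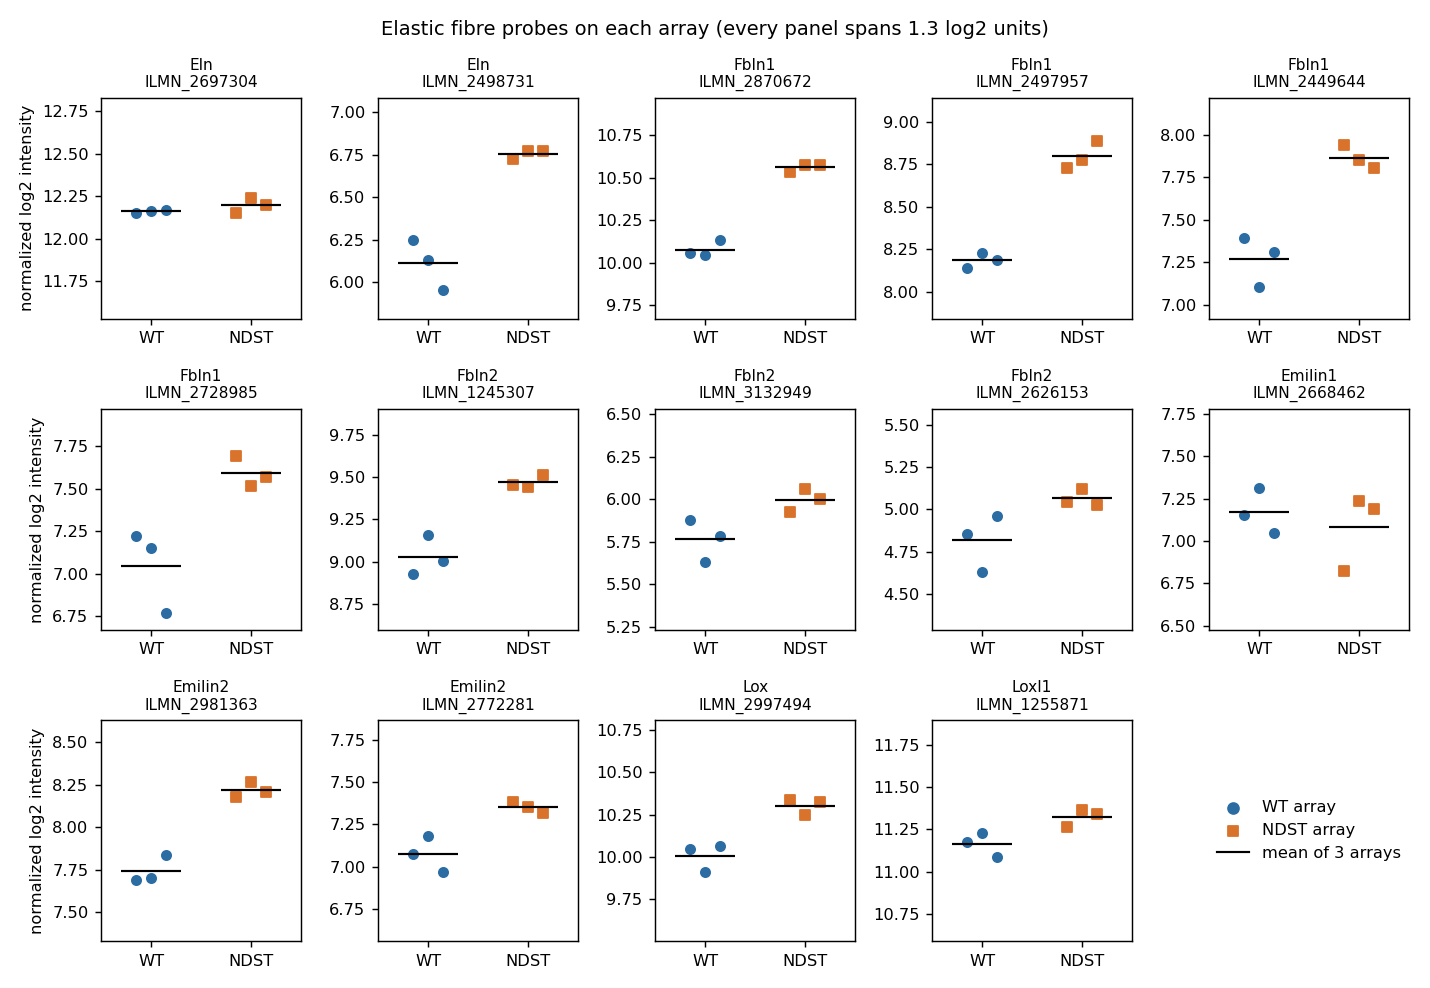
Normalized log2 intensity of each tested probe on each array, in 1 panel per probe; circles are WT arrays, squares are NDST arrays and lines are means of 3 arrays. The NDST arrays lie above the WT arrays in every panel except that of the Eln probe ILMN_2697304 and that of Emilin1.

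The promoters of Fbln1 and Emilin2, 2 of the 4 genes with a called probe, are shown so that their letters can be read beside the values. Both windows lie wholly outside the annotated gene. Those of Eln and Fbln2 are not shown. RefSeq windows on the build GRCm38.p6 were at hand for 7 of the 10 members. Each stretch is the 250 bases before the gene's start, 5′ to 3′ on the strand of the gene, and the capitals mark matches to the E-box letters CANNTG. The stretch of Fbln1 is chr15:85205699-85205948 on the plus strand, and that of Emilin2 is chr17:71311557-71311806 on the minus strand.
Fbln1: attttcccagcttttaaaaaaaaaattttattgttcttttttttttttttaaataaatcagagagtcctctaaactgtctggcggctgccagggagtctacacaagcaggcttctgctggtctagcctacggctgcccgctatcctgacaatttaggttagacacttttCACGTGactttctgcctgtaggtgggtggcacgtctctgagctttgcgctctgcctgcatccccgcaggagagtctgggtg
Emilin2: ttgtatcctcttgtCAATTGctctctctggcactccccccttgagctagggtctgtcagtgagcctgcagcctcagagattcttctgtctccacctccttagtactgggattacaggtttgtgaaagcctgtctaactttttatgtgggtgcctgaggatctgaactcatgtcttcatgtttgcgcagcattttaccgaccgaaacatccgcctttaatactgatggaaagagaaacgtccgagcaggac
Each stretch held 1 E-box, as did 66.2% of the 32851 windows of this length, so this match sets neither gene apart. The SMAD box CAGAC, read on both strands, occurred in the Fbln1 stretch at 2 places and in the Emilin2 stretch at 1, and 42.2% of all windows held it. None of these matches overlapped an E-box. The GC box GGGCGG, the TATA box TATAAA, the AP-1 letters TGANTCA and the CArG box, searched on both strands, were in neither stretch and in 32.7%, 12.4%, 6.75% and 1.47% of all windows. The matches are descriptions of letters, not of binding.

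Eln, which encodes tropoelastin, was read by a bright and a dim probe, of which only the dim one passed. The bright probe ILMN_2697304, listed for NM_007925, had non-normalized intensities of 4581, 4718 and 4736 on the WT arrays and 4644, 5045 and 4874 on the NDST arrays. These values overlapped. After normalization the probe stood at 12.16 ± 0.01 in WT and 12.20 ± 0.04 in NDST (log2, SD, n = 3), a difference of 0.03 ± 0.07 (limma adjusted p = 0.80) with a 95% interval of -0.13 to 0.20. In the authors' processed values the same probe stood at -0.10.

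The dim probe of Eln, ILMN_2498731, was higher in NDST. It has no accession in the platform annotation, and which part of the transcript it reads is unknown here. Its non-normalized intensities were 178, 179 and 171 on the WT arrays and 222, 229 and 234 on the NDST arrays, with a detection p-value of 0 on every array. The genotypes did not overlap. The normalized values were 6.25, 6.13 and 5.95 in WT and 6.73, 6.77 and 6.77 in NDST, a difference of 0.65 ± 0.09 or 1.56-fold (limma adjusted p = 0.0126). Without background correction the difference was 0.28 (limma adjusted p = 0.00101). The call was lost without NDST replicate 2 (adjusted p = 0.0534) or NDST replicate 3 (adjusted p = 0.0522).

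Whether the Eln probes disagreed was itself tested, by the gap between them on each array. The bright probe stood above the dim one by 5.90, 6.03 and 6.22 log2 units on the WT arrays and by 5.43, 5.46 and 5.42 on the NDST arrays. The gap was narrower on every NDST array than on any WT array. The difference between the probes was 0.61 ± 0.12 with a 95% interval of 0.33 to 0.90. With limma's p adjusted over all 5380 probe pairs on the array it did not pass (adjusted p = 0.105). Of those pairs 0.242% passed. Over the 18 alternatives the adjusted p of this difference ranged from 0.00244, in the authors' processed values and the only one to pass, to 0.273. By their values over the 6 arrays, the bright Eln probe was most like Ghitm, Sav1 and Rpl28 (Pearson r of 0.97, 0.97 and 0.96) and the dim one most like Nop58, Rgs4 and Fads1 (r of 0.999, 0.998 and 0.995). These are the highest of 3917 genes compared over 6 arrays that share 2 genotypes, and the genotype differences of the last 3 genes were 0.54, 0.57 and 0.53.

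Fbln1 gave the firmest result, with 3 of its 5 probes past the threshold in the same direction. Fibulin-1 is a calcium-binding glycoprotein of elastic fibres, basement membranes and plasma. The brightest probe, ILMN_2870672, had non-normalized intensities of 1126, 1147 and 1214 in WT and 1623, 1708 and 1707 in NDST, with no overlap. Its normalized values rose from 10.08 ± 0.05 to 10.56 ± 0.03 (log2, SD, n = 3), by 0.49 ± 0.07 or 1.40-fold (limma adjusted p = 0.0126). The probe ILMN_2497957, listed for the cDNA AK083573, had 372, 398 and 390 in WT against 550, 579 and 618 in NDST. Its difference was 0.61 ± 0.08 or 1.53-fold (limma adjusted p = 0.00716), and it passed under all 18 alternatives, in which it lay between 0.46 and 0.76. No other member probe passed under all of them.

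The probe ILMN_2449644 had 264, 242 and 263 in WT against 365, 357 and 354 in NDST and differed by 0.60 ± 0.10 or 1.51-fold (limma adjusted p = 0.0186). The next probe, ILMN_2728985, had 245, 247 and 216 in WT against 325, 307 and 318 in NDST. It did not overlap either, yet at 0.54 ± 0.13 it missed the threshold (limma adjusted p = 0.0529), with the widest spread of the 4 among the WT arrays (SD 0.24). It passed under 9 of the 18 alternatives. The remaining probe, ILMN_2602770, was detected on no WT array and on 2 NDST arrays, between 126 and 146 on all 6, and was not tested. Without NDST replicate 2 the adjusted p of the brightest probe was 0.0539 and without NDST replicate 3 it was 0.0522, so that Fbln1 then kept only the call of ILMN_2497957. The call of ILMN_2449644 was lost without WT replicate 3 or any 1 of the NDST replicates, and without background correction its difference was 0.37.

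The 4 tested Fbln1 probes differed little among themselves. Against the brightest probe the others stood 0.06 to 0.13 higher in their genotype difference, with the lowest adjusted p of these pairs at 0.691. The widest of their 95% intervals ran from -0.32 to 0.44, which does not show that the probes changed alike.

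Of the 3 Fbln2 probes the brightest rose. Fibulin-2 binds tropoelastin and fibrillin and lies in the walls of large vessels. ILMN_1245307 had non-normalized intensities of 564, 662 and 603 in WT and 824, 838 and 875 in NDST, with no overlap. It was higher by 0.44 ± 0.09 or 1.35-fold (limma adjusted p = 0.0300). This call held in 1 of the 6 fits that left out an array, that without WT replicate 2 (adjusted p = 0.0458), and was lost in the other 5 (adjusted p up to 0.0899). ILMN_3132949 had 162, 159 and 165 in WT against 174, 183 and 186 in NDST and stood at 0.23 ± 0.09 (adjusted p = 0.163). The third probe, ILMN_2626153, was not above background on any WT array and was on all 3 NDST arrays. It had 134, 133 and 143 in WT against 144, 147 and 151 in NDST. With WT set to the lowest detectable level, NDST stood 1.07-fold above it, a bound that was not tested. The probe did not pass (limma adjusted p = 0.179, for its difference without that bound). ILMN_3132949 stood 0.20 below the brightest probe in its genotype difference, and this gap did not pass (limma adjusted p = 0.603). It passed without background correction, at -0.29 (adjusted p = 0.0410), and in the authors' processed values after quantile normalization, also at -0.29 (adjusted p = 0.0379). No gap is given for ILMN_2626153, which has only a bound in WT.

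Fbln5 and Efemp1 gave too little signal for a test. Fbln5, which tethers tropoelastin to cells and microfibrils and is required for normal elastic fibres in mice, was read by 1 probe, between 120 and 129 on all 6 arrays and detected on none. Efemp1, a fibulin of the fascia and the eye, had 117, 136 and 161 on the WT arrays and 125, 124 and 136 on the NDST arrays, and was detected on WT replicate 3 alone. These probes cannot show whether the transcripts were absent or the probes failed to read them.

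**Figure D2:**
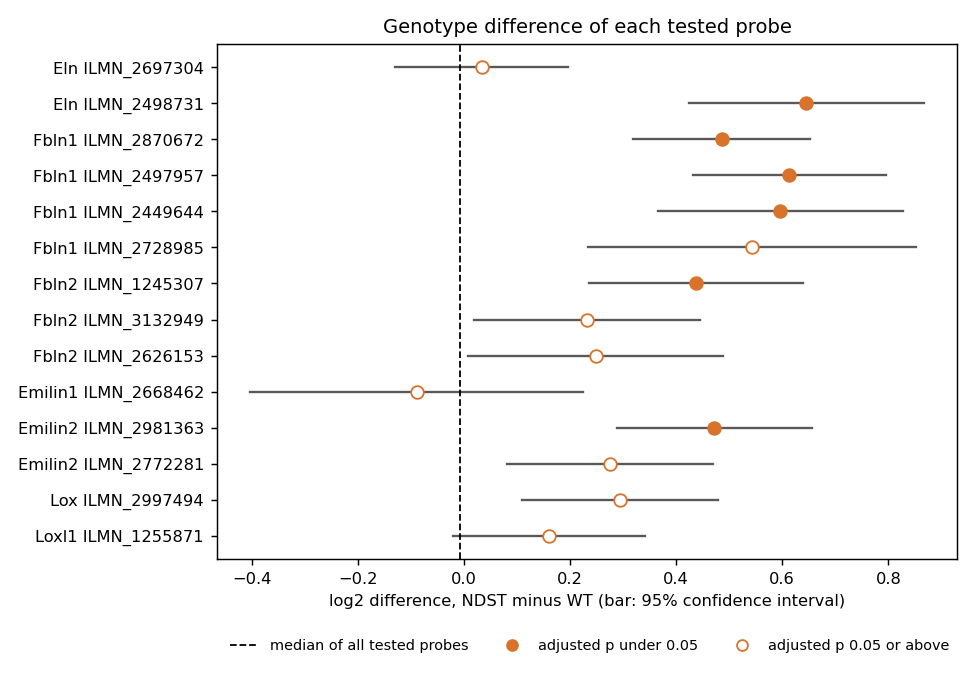
Log2 difference, NDST minus WT, of each tested probe with its 95% confidence interval; filled points have an adjusted p under 0.05 and the dashed line is the median of all tested probes (-0.01). The 4 Fbln1 probes lie between 0.49 and 0.61, while the Eln probes lie at 0.03 and 0.65.

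Emilin2 rose by its brighter probe, and Emilin1 did not pass. Emilins are glycoproteins with a coiled coil, and in mice Emilin1 restrains the processing of the TGF-beta precursor. The brighter probe of Emilin2, ILMN_2981363, had non-normalized intensities of 301, 310 and 330 in WT and 410, 439 and 430 in NDST, with no overlap. It was higher by 0.47 ± 0.08 or 1.39-fold (limma adjusted p = 0.0189). This call held when WT replicate 3 was left out (adjusted p = 0.0377) and was lost when any other single array was left out (adjusted p up to 0.0695). The dimmer probe, ILMN_2772281, had 232, 251 and 231 in WT against 284, 286 and 287 in NDST. It stood at 0.28 ± 0.08 (limma adjusted p = 0.0897), and the gap of -0.20 between the probes did not pass (adjusted p = 0.572).

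Emilin1 was read by 1 probe, with 239, 264 and 238 in WT against 229, 274 and 273 in NDST. The genotypes overlapped and NDST replicate 1 was the lowest of all 6 arrays. The difference was -0.09 ± 0.13 (limma adjusted p = 0.720), with a 95% interval of -0.40 to 0.22, and its sign turned with median scaling (0.048), without scaling between arrays (0.092) and without NDST replicate 1 (0.042).

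Neither oxidase passed, and both had higher values on the NDST arrays. Lox, which oxidizes lysine in elastin and collagen, had 1122, 1056 and 1150 in WT and 1417, 1379 and 1443 in NDST, with no overlap. Its difference was 0.29 ± 0.08 or 1.23-fold, with a 95% interval of 0.11 to 0.48 (limma adjusted p = 0.0672). It passed under 9 of the 18 alternatives and in none of the fits that left out an array, and its adjusted p ranged from 0.00101 to 0.162. Loxl1, the relative that fibulin-5 binds and that adult elastic fibre renewal needs in mice, had 2354, 2486 and 2245 in WT against 2592, 2837 and 2750 in NDST with ILMN_1255871. These groups did not overlap either, but the difference was small, 0.16 ± 0.08 with a 95% interval of -0.02 to 0.34 (limma adjusted p = 0.242). Of the 18 alternatives it passed with 1, an intensity trend in limma's prior (adjusted p = 0.0413), and in the authors' processed values the difference was 0.059. The second Loxl1 probe, ILMN_1257592, was detected on no array.

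Of the 7 probe pairs of 4 genes, 1 holds the Fbln2 probe ILMN_2626153, which has only a bound in WT, and says nothing about disagreement. None of the other 6 passed with the main processing (limma, with 1 unadjusted p under 0.05), and with it the gap between the Eln probes was the widest of the 6. This order depended on the background: without background correction the Eln gap was 0.25 (adjusted p = 0.0691), beside -0.29 for the Fbln2 probe ILMN_3132949, which then passed. In the authors' processed values after quantile normalization the Eln gap was 0.24 (adjusted p = 0.0699), again beside -0.29.

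**Figure D3:**
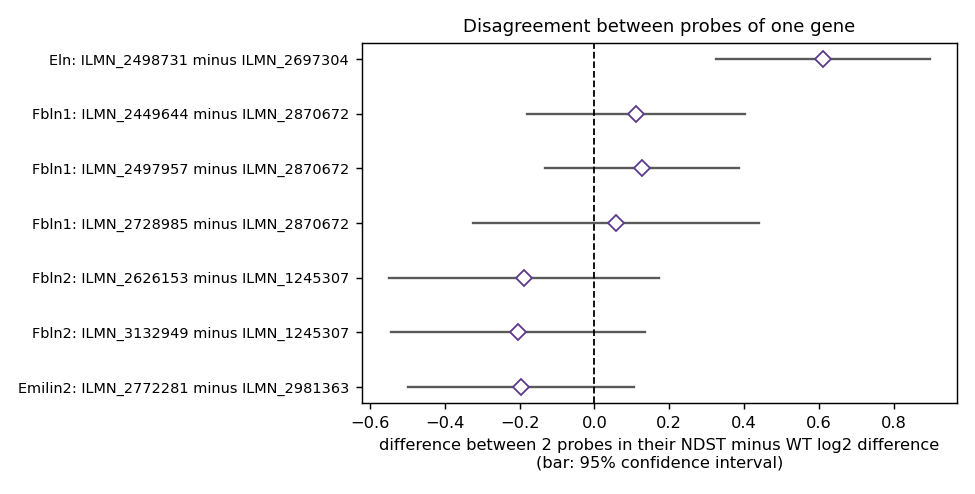
Difference between 2 probes of one gene in their NDST minus WT log2 difference, other probe minus brightest probe, with 95% confidence intervals unadjusted for the number of pairs. The interval of the Eln pair at 0.61 does not include 0 and those of the other 6 pairs do; the pair with ILMN_2626153 rests on a probe not above background in WT.

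The neighbours of these genes in the elastic fibre pathway changed in part. Of 46 genes in 6 lists, 32 were tested by their brightest probe, 4 rose and 2 fell, while over all 10076 genes 4.61% rose and 2.74% fell. Their median was 0.11, beside 0.00 over all genes. The rises were 3 of the 8 tested microfibril genes, Mfap2 (0.47 ± 0.08, limma adjusted p = 0.0177), Mfap4 (0.37 ± 0.07) and Mfap5 (0.36 ± 0.07), and 1 of the 6 tested elastin-degrading proteases, the gelatinase Mmp2 (0.51 ± 0.08, adjusted p = 0.0141). Mfap2, Mfap4 and Mfap5 encode small glycoproteins bound to microfibrils. The fibrillin genes Fbn1 and Fbn2 were not analysed here, and Mfap1a and Ltbp2 gave too little signal for a test. Mfap4 was the brightest of its list, and another 2 probes of Mfap2 stood at 0.26 and 0.35. The falls were 2 of the 6 tested protease inhibitors, Timp1 (-0.69 ± 0.09, adjusted p = 0.00752) and Timp4 (-0.43 ± 0.09, adjusted p = 0.0316). The brightest inhibitor, Cst3, stood at 0.21 ± 0.07 (adjusted p = 0.131).

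None of the other lists held a called gene. Of 3 tested fibulin and emilin relatives the brightest, the endothelial Mmrn2, stood at 0.29 ± 0.08 (limma adjusted p = 0.0667), and the emilin relative Mmrn1, singled out after its value was seen, at 0.52 ± 0.14 (adjusted p = 0.0689). Of 6 genes for crosslinking and copper supply the brightest was the copper chaperone Atox1 at -0.13 ± 0.07 (adjusted p = 0.313). Of 3 elastin receptor genes the brightest was Ctsa at -0.16 ± 0.07 (adjusted p = 0.199), while its other tested probe stood at 0.09. Of the called neighbours only Timp1 passed in all 6 fits that left out an array, Mmp2 passed in 2, Mfap2 and Timp4 in 1 and Mfap4 and Mfap5 in none.

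**Figure D4:**
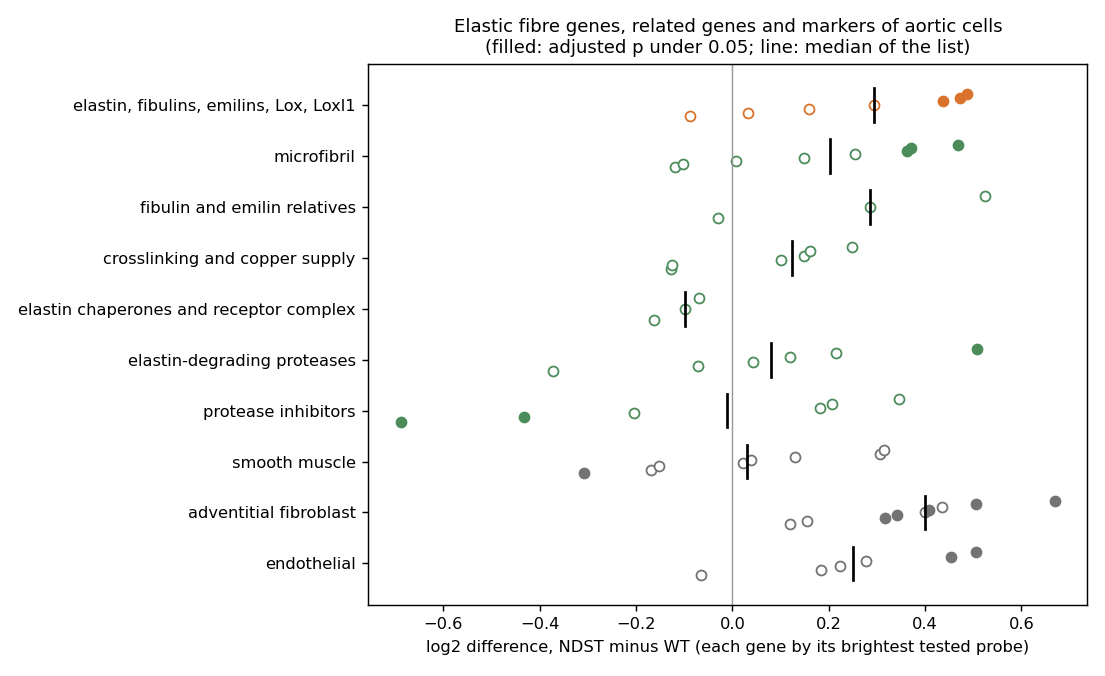
Log2 difference, NDST minus WT, of each gene by its brightest tested probe, for the elastic fibre members (orange), 6 lists of related genes (green) and markers of smooth muscle, adventitial fibroblasts and endothelium (grey). Filled points have an adjusted p under 0.05 and vertical lines are list medians, which are 0.29 for the members, 0.40 for the fibroblast markers and 0.03 for the smooth muscle markers.

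Markers of other cells differed in the same arrays, and their part in the results above was not tested. In bulk tissue fewer cells of a type and less RNA per cell cannot be told apart. Of 9 tested adventitial fibroblast markers 5 rose (median 0.40), among them the brightest, Dcn (0.32 ± 0.07), and the one with the smallest p, Pi16 (0.67 ± 0.08, limma adjusted p = 0.00601). Other tested probes of the risen markers stood at -0.12, 0.28 and 0.18 for Dcn, 0.42 for Lum and -0.06 for Serpinf1. The summed normalized intensity of the 9 markers on the linear scale was 18972 to 19428 in WT and 24267 to 24777 in NDST. As background, adventitial fibroblasts also express Fbln1, Fbln2 and Lox. Of 6 endothelial markers 2 rose, Cldn5 (0.51 ± 0.07) and, named after its value was seen, Vwf (0.45 ± 0.09), while the brightest, Pecam1, stood at 0.18 ± 0.08 (adjusted p = 0.215), and the sum was 3323 to 3514 in WT and 4148 to 4332 in NDST.

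All 7 tested cardiac muscle markers rose, among them the brightest, Myl4 (3.33 ± 0.07), and Actc1 (3.84 ± 0.08, limma adjusted p = 3.04e-06). Their sum was 1367 to 1395 in WT and 16358 to 17117 in NDST. Smooth muscle markers, all 8 of them detected, had a median of 0.03 and a sum of 43468 to 44729 in WT against 43815 to 45957 in NDST. That sum mostly follows Acta2, at a mean log2 of 15.15 beside 11.85 for the next, Myh11. Single markers lay on both sides of the median, among them Des and Myocd at 0.31 and Smtn at -0.17, none of which passed. The brightest, Acta2, stood at 0.02 ± 0.07 (adjusted p = 0.875) and 1, Lmod1, fell by 0.31. That Acta2 value comes from the brightest of 5 tested probes. The other Acta2 probes disagreed widely, most of them higher in NDST and another clearly lower. The brightest probe alone therefore does not show that Acta2 was unchanged. All 8 smooth muscle markers were above background on all 6 arrays, as were the 9 fibroblast, 6 endothelial and 7 cardiac markers that were tested. None of the 6 adipocyte, 4 macrophage, 3 lymphocyte, 2 mesothelial and 2 Schwann cell markers tested passed, and the brightest of these lists were Cidea (0.02), Lyz2 (-0.01), Cd3g (0.27), Upk3b (0.24) and Sox10 (0.23). The other Schwann cell marker, S100b, named after its value was seen, stood at -0.56 ± 0.22 (limma adjusted p = 0.162) and was above background on 3 WT arrays and 1 NDST array. Of 2 skeletal muscle markers Ckm, which heart muscle makes as well, was above background on no WT array and on all 3 NDST arrays. Ckm entered the test only through its NDST arrays, so its call is not taken as a result. Of 2 lung markers Scgb1a1 rose (2.38 ± 0.07) and Cyp2f2, also named after its value was seen, fell by 0.68. Of 3 red cell markers Slc4a1 fell by 0.41 while the brightest, Hba-a1, stood at -0.02.

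**Figure D5:**
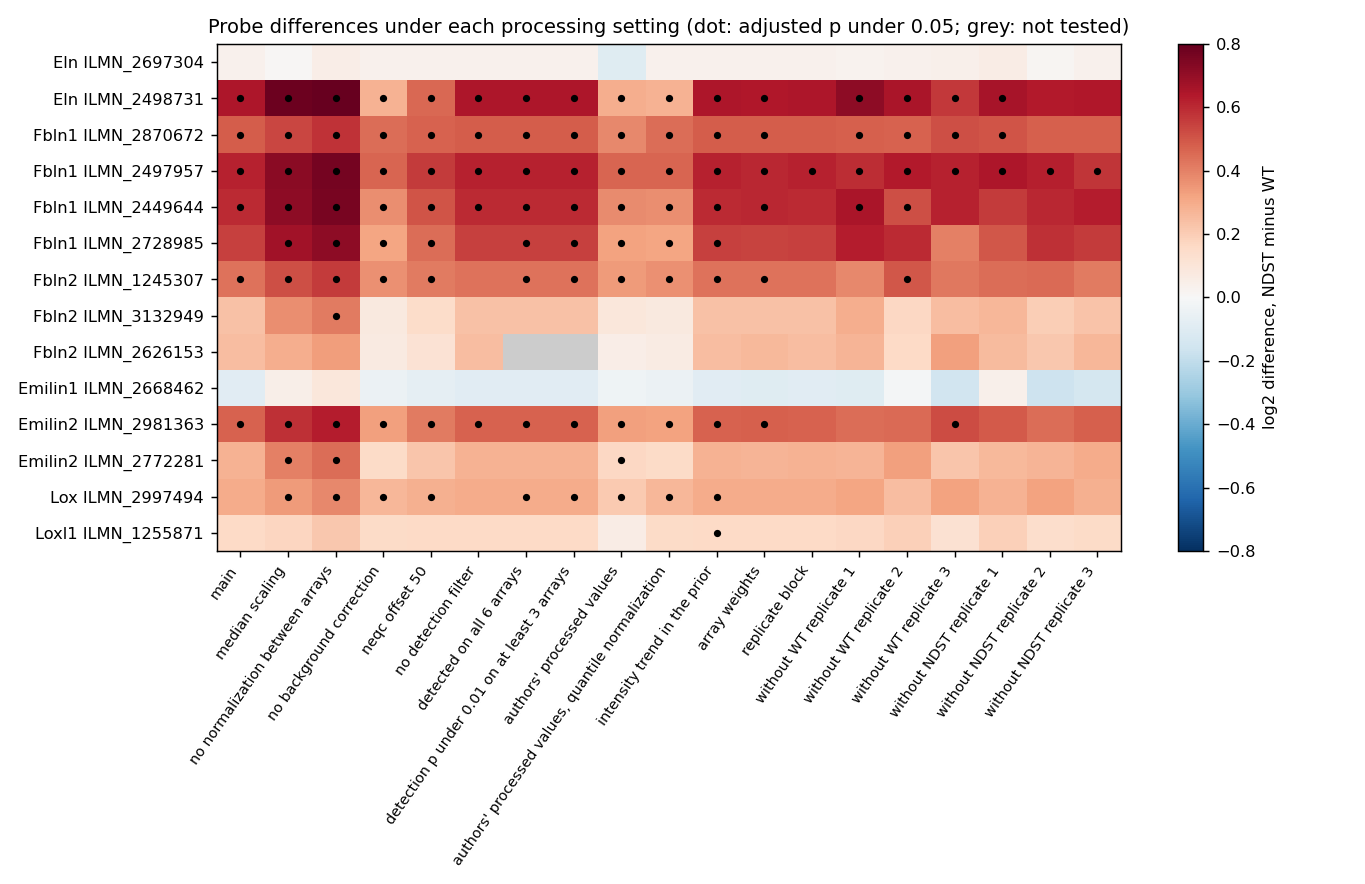
Log2 difference, NDST minus WT, of each tested probe (rows) with the main processing and the 18 alternatives (columns); a dot marks an adjusted p under 0.05 and grey a probe not tested. ILMN_2497957 of Fbln1 carries a dot in every column, while the dots of the other called probes thin out where an array is left out.

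Leaving out an array lowered the number of called member probes from 6 to 4, 5 and 4 without WT replicates 1, 2 and 3, and to 3, 1 and 1 without NDST replicates 1, 2 and 3. Over those fits the differences of the called probes lay between 0.47 and 0.51 for the brightest Fbln1 probe, 0.57 and 0.65 for ILMN_2497957, 0.51 and 0.66 for ILMN_2449644, 0.38 and 0.50 for Fbln2, 0.45 and 0.52 for Emilin2 and 0.57 and 0.71 for the dim Eln probe. The probes that had not passed lay between 0.40 and 0.63 for ILMN_2728985 of Fbln1, 0.17 and 0.29 for ILMN_3132949 of Fbln2, 0.22 and 0.33 for the dimmer Emilin2 probe, 0.25 and 0.32 for Lox, 0.12 and 0.19 for Loxl1, 0.013 and 0.059 for the bright Eln probe and -0.17 and 0.042 for Emilin1. Over the whole table the same fits called between 404 and 532 probes in place of 1336.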

How the data were processed

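Thoracic aorta RNA of 3 NDST and 3 WT samples was measured on 1 Illumina array each, grouped by sample title. The deposited non-normalized table gives an average intensity and a detection p-value for each probe, per the file headers. The authors' processed table also holds linear intensities, with medians of 135.8 to 135.9 on the WT arrays and 134.2 to 134.4 on the NDST arrays; the scaling behind them is unknown, and the table served as an alternative. GenomeStudio appears, without a version, among the submitters' processing notes.

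In R 4.3.3 with limma 3.58.1, neqc corrected the background by normexp from the deposited detection p-values, with an offset of 16. The arrays were then quantile-normalized on the linear scale, and log2 was taken afterwards. Quantile normalization equalizes the arrays' distributions, and the offset understates changes of dim probes. Probes with a detection p under 0.05 on at least 3 of the 6 arrays, 17954 of 45281, were tested with lmFit and eBayes, two-sided. The same fit was run on per-array differences between the brightest and each other tested probe of a gene. Median intensities were 130.0 to 141.5, with 17549 to 18619 detected probes. The number of arrays limits the precision, and the median SD within a genotype was 0.083 over tested member probes and 0.13 over all.

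The platform annotation gave 1 gene for 34885 probes, several for 18 and none for 10378, and 10 symbols were updated through RefSeq. Lists count each gene by its brightest tested probe. All members were named with every probe; of each list of related genes those past the threshold and the brightest; of each marker list the brightest and, where any passed, the one with the smallest p; and for each Eln probe the 3 genes most correlated with it among those with a mean log2 of at least 8. Members and lists were chosen with earlier results of these data known. The fits were tested on simulated data. Of the 18 alternatives, 6 left out an array and renormalized the others, 10 changed a single step, and 2 started from the authors' processed values, which replaces input, background correction and normalization together. Same-numbered samples of the genotypes did not deviate together (correlations -0.015, 0.011 and 0.020), so the replicate numbers were not taken as pairs.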

Additional observations from a re-analysis of the deposited data

How the results depend on the processing

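The 6 called member probes became 10 without normalization between arrays (the overall median then stood at 0.13) and 5 to 9 under the other alternatives that used all arrays, except the replicate block; leaving out an array gave 1 to 5. With the replicate block, whose numbers did not pair the samples (1 of 3 arrays matched its own number best), 1 remained past the threshold, and 364 of all probes in place of 1336. Over the alternatives the whole table gave 364 to 3493 calls. The share of higher calls was 58.1%, but 82.9% with median scaling, 88.9% without scaling and 41.5% in the authors' processed values; the called member probes were higher in each. No probe pair passed, against 2 without background correction, in the authors' processed values and in these after quantile normalization (1 of them each time, that of ILMN_2626153 of Fbln2, has only a bound in WT). The 6 called pathway genes became 11 without normalization between arrays, 14 without background correction, 3 without the detection filter, 15 in the authors' processed values, 14 in these after quantile normalization, 15 with an intensity trend, 1 with the replicate block, and 1 to 4 without an array. Signs turned, with no call, for the bright Eln probe in the authors' processed values (-0.10) and for Emilin1 with median scaling (0.048), without scaling (0.092) and without NDST replicate 1 (0.042, over the fits without an array -0.17 to 0.042). Lox passed with 9 alternatives; the causes were not tested. Probes near background, those of Fbln5, Efemp1 and 1 each of Fbln1 and Loxl1, allow no statement on a difference.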
